A study of Mus musculus with 2 samples.

Results

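The genes described here are the 5 primary neutrophil granule genes Elane, Prtn3, Ctsg, Mpo and Ms4a3, out of 32285 genes counted in each of 2 single-cell RNA libraries. They were chosen as listed genes of the azurophil granule and of early granulocytes that are present in both matrices. The rule itself uses no measured level, but these genes and the other lists used below were chosen with earlier results of these data known. Counts of listed genes set against all genes are therefore a description only. Their unique molecular identifiers (UMIs, the tags that mark single captured molecules) were read over barcodes with at least 8000 UMIs, of which less than 10% were mitochondrial, taken as cells. That left 5363 cells of the miR-142 WT library and 5458 cells of the miR-142 KO library. Both libraries came from Lin-Sca-1+c-Kit+ (LSK) bone marrow cells of SCLtTA/BCR-ABL mice aged 8 to 10 weeks on the B6 background, in which withdrawal of tetracycline had switched on BCR-ABL from the SCL promoter for 2 weeks. The miR-142 WT library had the strain label BCR-ABL+ and the miR-142 KO library the label Mir142 KO BCR-ABL+, a cross with the constitutive miR-142 knockout. The transgene was thus shared by both, and the microRNA was missing from every cell of the knockout mouse, not only from those with BCR-ABL. How many mice each library pooled is not given in the sources used here, so with 1 library a group there is no replicate check and no test. All intervals are exact 95% intervals for counting error. How mice differ from each other is not in them, and those of levels and ratios also leave out how cells differ.

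Primary, or azurophil, granules are the first granules to be filled as a myeloid progenitor becomes a promyelocyte. They store serine proteases and myeloperoxidase for use in mature neutrophils and, to a lesser extent, monocytes. Elane encodes neutrophil elastase, Prtn3 proteinase 3 and Ctsg cathepsin G, which are related serine proteases, while Mpo encodes the peroxidase that makes hypochlorous acid. Ms4a3 encodes a membrane protein of early granulocyte and monocyte progenitors. Transcription of such genes begins in multipotent progenitors, before any granule is seen, which is why they are used to recognise myeloid priming within LSK cells. PU.1, a factor of the ETS family, and factors of the C/EBP, MYB and RUNX families are known to regulate them.

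The microRNA that was deleted is shown because its absence defines the comparison. From RefSeq (GRCm38.p6), its mature arms lie on the plus strand, at chr11:87756867-87756887 and chr11:87756903-87756925, and capitals mark the seed, bases 2 to 8.
mmu-miR-142a-5p: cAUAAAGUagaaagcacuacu
mmu-miR-142a-3p: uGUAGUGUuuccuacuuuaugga
The DNA letters that pair with these seeds, ACTTTAT and ACACTAC, were searched in the longest annotated 3′ UTR of each gene (GENCODE M21). The 3′ UTRs were short, 101 bases for Elane, 201 for Prtn3, 81 for Ctsg, 351 for Mpo and 165 for Ms4a3, and 0 of the 5 held either run of letters. Of 21824 genes with an annotated 3′ UTR, 14.2% held ACTTTAT and 6.31% held ACACTAC. No match says only that these letters are not in these windows.

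The promoter windows are shown because the 5 genes stood higher in the same library and are thought to share regulators. Each runs from 250 bases before to 50 bases after the start that RefSeq annotates (GRCm38.p6) and is written 5′ to 3′ along the gene. This start can differ from that of GENCODE M21: the whole Prtn3 window lies inside the gene as annotated there (chr10:79874476-79883174). For Elane and Mpo, part of the window before the RefSeq start also lies inside the gene as annotated there. Capitals mark GGAAGT, a core of ETS family sites, or its reverse complement ACTTCC. The positions are chr10:79886062-79886361 (plus strand) for Elane, chr10:79879417-79879716 (plus) for Prtn3, chr14:56102525-56102824 (minus) for Ctsg, chr11:87793534-87793833 (plus) for Mpo and chr19:11640802-11641101 (minus) for Ms4a3.
Elane: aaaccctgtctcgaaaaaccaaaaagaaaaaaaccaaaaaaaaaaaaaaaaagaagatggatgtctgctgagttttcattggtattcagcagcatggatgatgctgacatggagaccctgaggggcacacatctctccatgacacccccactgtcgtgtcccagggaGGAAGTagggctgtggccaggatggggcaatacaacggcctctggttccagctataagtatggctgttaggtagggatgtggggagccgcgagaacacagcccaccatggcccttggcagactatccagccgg
Prtn3: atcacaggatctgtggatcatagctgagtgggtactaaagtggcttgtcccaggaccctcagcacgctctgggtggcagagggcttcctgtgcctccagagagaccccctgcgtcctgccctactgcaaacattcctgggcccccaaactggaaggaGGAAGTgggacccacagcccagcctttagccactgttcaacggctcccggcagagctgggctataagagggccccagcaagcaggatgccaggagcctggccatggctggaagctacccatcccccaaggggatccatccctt
Ctsg: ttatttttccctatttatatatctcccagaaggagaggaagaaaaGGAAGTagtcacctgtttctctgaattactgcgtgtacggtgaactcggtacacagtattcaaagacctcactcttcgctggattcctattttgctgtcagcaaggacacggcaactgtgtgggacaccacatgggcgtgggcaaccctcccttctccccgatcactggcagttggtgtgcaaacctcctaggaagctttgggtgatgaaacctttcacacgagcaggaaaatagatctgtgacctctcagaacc
Mpo: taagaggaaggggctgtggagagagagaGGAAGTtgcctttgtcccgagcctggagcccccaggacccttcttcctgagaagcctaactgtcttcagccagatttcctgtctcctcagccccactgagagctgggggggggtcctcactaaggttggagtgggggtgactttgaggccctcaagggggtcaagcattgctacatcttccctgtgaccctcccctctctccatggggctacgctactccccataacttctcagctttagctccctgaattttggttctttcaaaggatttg
Ms4a3: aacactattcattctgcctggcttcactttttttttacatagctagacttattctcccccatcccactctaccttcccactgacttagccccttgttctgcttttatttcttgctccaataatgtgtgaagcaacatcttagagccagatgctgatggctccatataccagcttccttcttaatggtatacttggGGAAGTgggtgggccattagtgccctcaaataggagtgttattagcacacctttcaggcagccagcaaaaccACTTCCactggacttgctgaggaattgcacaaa
GGAAGT on either strand was in 5 of 5 windows, against 23.8% of the 32851 promoter windows in the same table. These letters were chosen after the windows had been read. The match began 83 bases before the start in Elane, 93 in Prtn3, 205 in Ctsg, 222 in Mpo and 55 in Ms4a3, which also held ACTTCC in the transcribed part. The Elane and Prtn3 windows resembled each other further. Both held AACGG, a MYB core (17.4% of all windows on either strand), and TATAAG (7.43%), in the same order, with TATAAG beginning 31 and 32 bases before the start. In both genes these letters lie inside the gene as annotated by GENCODE M21. Ctsg held the RUNX core TGTGGT on the other strand (16.8% of all windows). Ms4a3 held TTGCNNAA, a pair of C/EBP half-sites (10.8%), in its transcribed part. None of the motifs searched overlapped another within a window. These matches describe letters and do not show that a factor bound.

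The cells of the miR-142 WT library held 138183896 UMIs, with a median of 19443 a cell, and those of the miR-142 KO library 158438757, with a median of 24181.5. Mir142hg, the host transcript of the microRNA, had 1260 UMIs in the miR-142 WT library and 20 in the miR-142 KO library, a log2 ratio of -6.17 (-6.89 to -5.54). Kit stood at 86.4 and 68.3 counts per 1000000 UMIs (CPM) in the miR-142 WT and miR-142 KO cells, and Ly6a, which encodes Sca-1, at 96.8 and 153. Of 11 genes that mark mature lineages, 8 were under 1 CPM in both libraries, and all 6 T lineage genes were. Their part in the results below was not tested. Only 4 cell barcodes occurred in both libraries.

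All 5 granule genes stood higher in the miR-142 KO library over all cells, by unequal amounts. Elane differed most: 659 CPM (655 to 664) in miR-142 WT cells against 2603 CPM (2595 to 2611) in miR-142 KO cells, which is 3.95-fold, or 1.98 on the log2 scale (1.97 to 1.99). Ctsg stood at 1378 and 4373 CPM, a log2 ratio of 1.67 (1.66 to 1.67). Ms4a3 stood at 395 and 1083 CPM, a log2 ratio of 1.46 (1.44 to 1.47). Prtn3, which already stood at 2537 CPM in miR-142 WT cells, reached 4729 CPM, a log2 ratio of 0.90 (0.89 to 0.90). Mpo differed least, with 1254 and 1646 CPM and a log2 ratio of 0.39 (0.38 to 0.40). None of the 5 intervals overlapped another, so each gene differed from the others in counting terms, and not only Mpo from the rest. Prtn3 lay between Mpo and the other genes.

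At least 2-fold higher levels were seen for 3 of the 5 genes, Elane, Ctsg and Ms4a3. Among the 7483 genes with a mean of at least 10 CPM, 1.02% were at least 2-fold higher in the miR-142 KO library, and the median log2 ratio was -0.08. By size of ratio, Elane ranked 13 of 7483, Ctsg 19, Ms4a3 29, Prtn3 92 and Mpo 423. By level among all genes, Prtn3 ranked 79 in the miR-142 WT library and 26 in the miR-142 KO library, Ctsg 121 and 36, Elane 201 and 80, Ms4a3 332 and 143, and Mpo 127 and 109. In a pool of cells, more cells of a type and more RNA in each cell cannot be told apart, and the cell groups described further on were present in different shares. With both libraries weighted to the same share of each marker-gated group, the log2 ratios were 0.84 for Elane, 0.44 for Prtn3, 1.10 for Ctsg and 0.87 for Ms4a3, and that of Mpo turned to -0.30. Under that weighting Ctsg alone remained at least 2-fold higher, but it rests in part on small groups, among them 34 Neutrophil-leaning cells of the miR-142 WT library. Over the 5 groups of at least 50 cells in both libraries, ungated cells included, the same weighting gave 1.37 for Elane, 0.48 for Prtn3, 1.22 for Ctsg, -0.13 for Mpo and 0.96 for Ms4a3, an alternative chosen after the data had been seen that leaves out all Neutrophil-leaning cells.

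**Figure D1:**
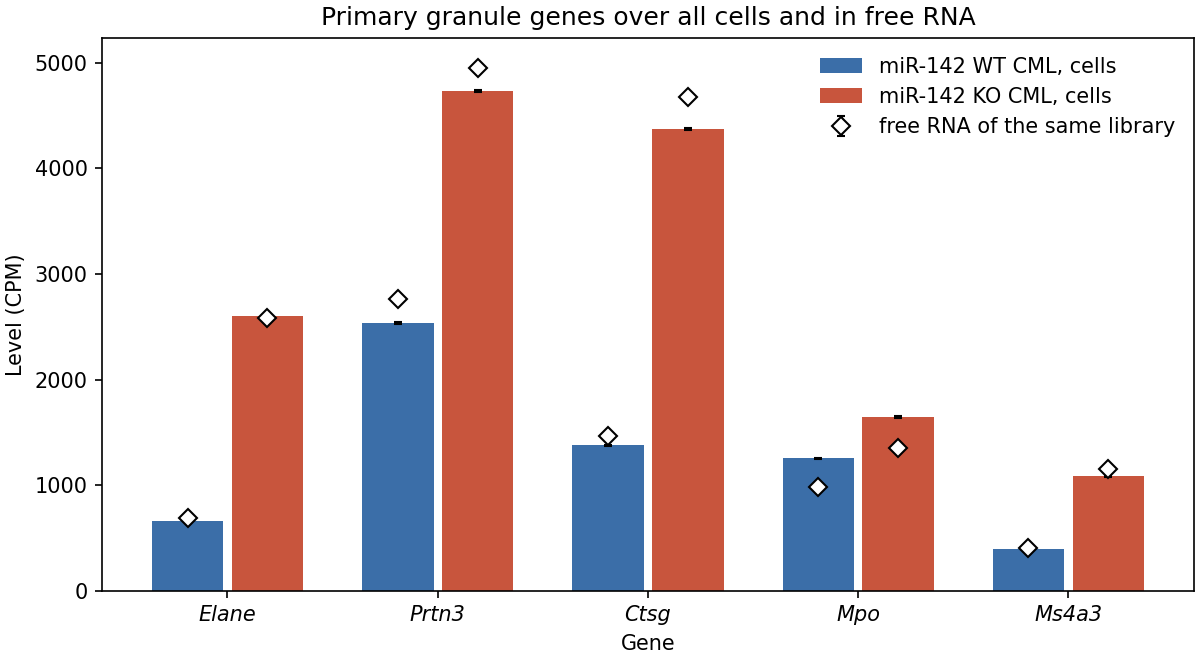
Level of each gene over all cells of each library (bars, CPM, from 0, with exact 95% Poisson intervals) and in the free RNA of the same library (open diamonds). Bars of the miR-142 KO library are taller for all 5 genes, from 1646 against 1254 CPM for Mpo to 2603 against 659 CPM for Elane, and each diamond lies near its bar.

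The level of a library hid how the molecules were spread over its cells. In the miR-142 WT library the median cell had 0 CPM of Elane and of Ms4a3, 110 CPM of Ctsg, 154 CPM of Mpo and 835 CPM of Prtn3. In the miR-142 KO library the medians were 157 CPM for Elane, 426 for Ms4a3, 2887 for Ctsg, 530 for Mpo and 2258 for Prtn3. The upper cells also differed, with 90th percentiles of 571 and 5488 CPM for Elane, 744 and 1883 CPM for Ms4a3, 2547 and 7165 CPM for Ctsg, 2292 and 3268 CPM for Mpo, and 4190 and 8035 CPM for Prtn3. The single highest cells were closer: the cell with the most Elane stood at 23841 CPM in the miR-142 WT library and 28864 CPM in the miR-142 KO library, and for Mpo the highest cell was in the miR-142 WT library, 14694 against 13536 CPM. The tenth of cells with the highest level carried 93.9% of all Elane UMIs in the miR-142 WT library and 48.3% in the miR-142 KO library. For Ms4a3 these shares were 83.3% and 34.9%, for Ctsg 64.8% and 32.3%, for Mpo 69.4% and 39.9%, and for Prtn3 65.1% and 33.9%.

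Cells were thinned to 8000 UMIs each, which left out no cell, to compare how many of them showed each gene at 1 depth. Elane was seen in 24.7% of miR-142 WT cells (23.6% to 25.9%) and 62.1% of miR-142 KO cells (60.8% to 63.4%). Megakaryocyte-like cells, which should lack it, gave 7.83% and 22.5%, at median depths of 17275.5 and 14638.5 UMIs before thinning. Ms4a3 was seen in 31.1% and 70.2% of cells, against 25.5% and 42.8% of Megakaryocyte-like cells. Ctsg was seen in 57.4% and 89.6%, against 27.7% and 46.1%, and Mpo in 61.6% and 74.9%, against 24.7% and 26.5%. Prtn3 was near its ceiling in both libraries, with 94.4% and 95.7% of cells, and was also seen in 81.1% and 81.7% of Megakaryocyte-like cells. Without thinning the shares were 36.5% and 72.1% for Elane, 45.8% and 78.6% for Ms4a3, 67.5% and 92.5% for Ctsg, 71.7% and 82.3% for Mpo, and 97.5% in both libraries for Prtn3.

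A stricter limit of 5 UMIs of 8000, chosen after the data had been seen, set the libraries further apart for the genes that are rare in miR-142 WT cells. It was met for Elane by 10.2% of miR-142 WT cells (9.38% to 11.02%) and 39.4% of miR-142 KO cells (38.1% to 40.7%), and by 0 of 498 and 1.96% of Megakaryocyte-like cells. Ms4a3 met it in 11.3% and 45.5% of cells, Ctsg in 31.0% and 75.6%, Mpo in 27.9% and 48.4%, and Prtn3 in 65.7% and 83.9%. All 5 genes met it together in 8.78% of miR-142 WT cells (8.04% to 9.57%) and 35.3% of miR-142 KO cells (34.1% to 36.6%). None met it in 31.3% and 12.53% of cells. The 0 of 498 Megakaryocyte-like cells allow a share of up to 0.738% at the upper limit of the exact interval.

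**Figure D2:**
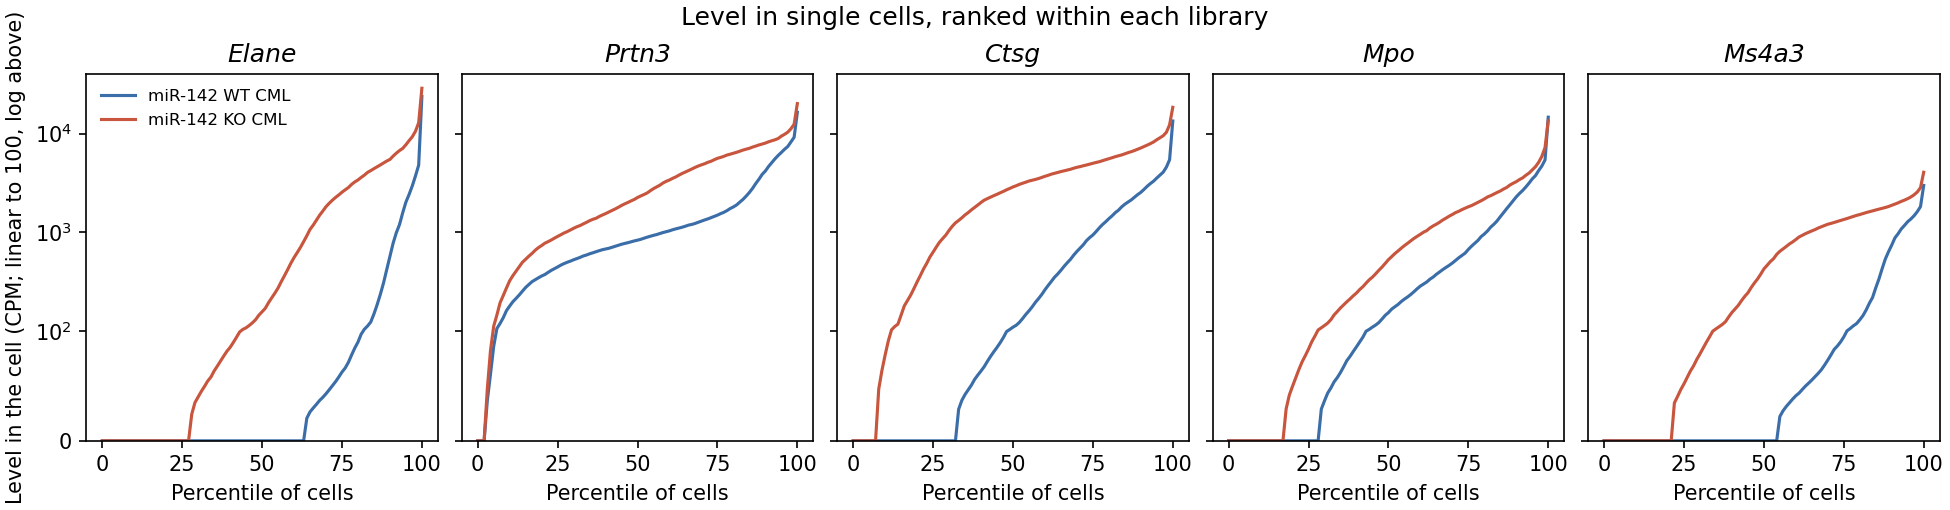
Level of each gene in single cells (CPM, linear up to 100 and logarithmic above) against the percentile of cells within each library. For Elane the miR-142 WT and miR-142 KO lines stand at 0 and 157 CPM in the median cell and at 571 and 5488 CPM at the 90th percentile, and come closer at the highest cell, with 23841 and 28864 CPM.

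RNA from broken cells also enters droplets that hold no cell. Barcodes of 11 to 99 UMIs were read as free RNA: 406586 barcodes with 10471004 UMIs in the miR-142 WT library and 429634 with 14304147 UMIs in the miR-142 KO library. Free RNA held Elane at 688 and 2580 CPM, Prtn3 at 2765 and 4950 CPM, Ctsg at 1462 and 4674 CPM, Mpo at 987 and 1350 CPM, and Ms4a3 at 405 and 1156 CPM. These levels were close to those of the cells: the level over all cells was 0.959 and 1.01 times that in free RNA for Elane, and between 0.918 and 0.975 times for Prtn3, Ctsg and Ms4a3. Mpo alone was richer in cells than in free RNA, 1.27 times in the miR-142 WT library and 1.22 times in the miR-142 KO library. The log2 ratios between the libraries in free RNA were 1.91 for Elane, 1.68 for Ctsg, 1.51 for Ms4a3, 0.84 for Prtn3 and 0.45 for Mpo, in the same order as over cells. Free RNA and cells are not independent readings, since both come from the same suspension.

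How much of this free RNA sits in a cell droplet was read from Erythroid-like cells, which do not make these proteins. Their 21 miR-142 WT cells held 86 UMIs of the 5 genes, 2.20% (1.76% to 2.72%) of the level in free RNA, and their 6 miR-142 KO cells held 38 UMIs, 2.05% (1.45% to 2.82%). At these shares a cell of 8000 UMIs would hold 0.121 free UMIs of Elane in the miR-142 WT library and 0.424 in the miR-142 KO library. In the miR-142 KO library that share would give 34.6% of cells a UMI of Elane, more than the 22.5% seen in Megakaryocyte-like cells. It is pooled over the 5 genes, and Elane itself had only 2 UMIs in the 6 cells, so it is a rough guide for any single gene. The corresponding values for Mpo were 0.174 and 0.222 UMIs, for Ms4a3 0.0713 and 0.190, for Ctsg 0.257 and 0.768, and for Prtn3 0.487 and 0.814. The number of Erythroid-like cells is small, and doublets, which were kept, were not part of this reading.

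The sum of the 5 genes depended on the depth of a barcode. Among barcodes with less than 10% mitochondrial UMIs, it was 6332 CPM in the miR-142 WT library and 14723 CPM in the miR-142 KO library at 11 to 99 UMIs, lowest at 4000 to 7999 UMIs, with 1220 and 1475 CPM, and highest at 32000 UMIs or more, with 10637 and 19282 CPM. At 4000 to 7999 UMIs, below the limit for cells, Prtn3 (789 and 666 CPM) and Mpo (134 and 122 CPM) stood lower in the miR-142 KO library. Elane, Ctsg and Ms4a3 stood higher there. At 8000 to 15999 UMIs the miR-142 WT cells still stood at 1247 CPM for the sum while the miR-142 KO cells stood at 3151 CPM. The granule genes were thus carried by the cells with the most RNA in both libraries. The cells of the middle depths held much less of them than the free RNA did.

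**Figure D3:**
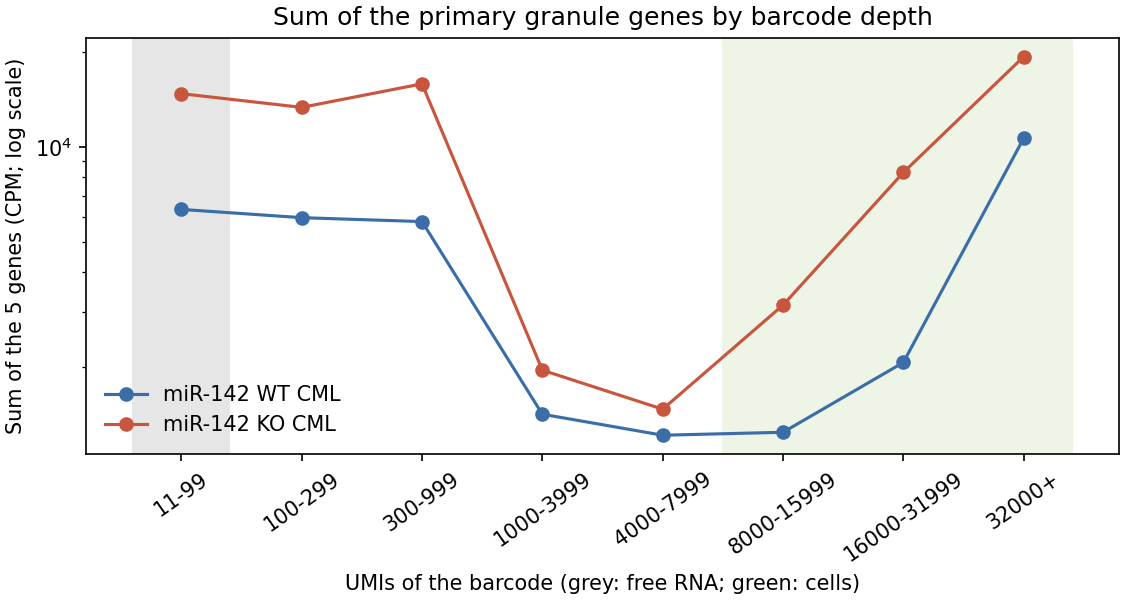
Sum of the 5 genes (CPM, logarithmic axis) in barcodes binned by their UMIs, for barcodes with less than 10% mitochondrial UMIs, with the free RNA range shaded grey and the cells shaded green. Both libraries dip at 4000 to 7999 UMIs, to 1220 and 1475 CPM, and the miR-142 KO library lies above the miR-142 WT library in all 8 bins.

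Cells were placed in groups by at least 3 distinct markers of a list, with none of the 5 genes among the markers, and 1210 miR-142 WT and 973 miR-142 KO cells were left ungated. The markers themselves differed between the libraries, so the numbers of cells in the groups are given as the basis of each value and are not compared. Within the miR-142 WT library the genes followed a gradient. Elane stood at 30.0 CPM in the 376 HSC-like cells, 155 CPM in the 2112 Lymphoid-primed-like cells (which express Flt3 and Dntt), 1493 CPM in the 849 Monocyte-leaning cells and 6268 CPM in the 34 Neutrophil-leaning cells. Mpo stood at 104, 658, 2607 and 5804 CPM in the same groups. Neighbouring groups in both orders had intervals that did not overlap, which holds for counting error only. Elane spanned a wider range than Prtn3, which was at 667 CPM in HSC-like cells and 7034 CPM in Neutrophil-leaning cells.

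Neutrophil-leaning cells had the highest level of each of the 5 genes in both libraries. Gfi1 was seen in 97.1% and 97.7% and Cebpe in 94.1% and 95.3% of them, which follows from the gate, since both are among its markers, while the defining genes of later neutrophils were rare or missing (Ltf in 0% and 0.152%, Camp in 0% and 2.90%). Their 656 miR-142 KO cells held Elane at 6095 CPM, Prtn3 at 7987 CPM, Ctsg at 7645 CPM and Ms4a3 at 1919 CPM. The 34 miR-142 WT cells held 6268, 7034, 4963 and 1395 CPM of these genes. Mpo stood at 5804 CPM in the miR-142 WT cells and 3356 CPM in the miR-142 KO cells. No ratio is given because fewer than 50 miR-142 WT cells passed this gate. The few miR-142 WT cells varied widely, with a median of 3236 CPM of Elane and a 90th percentile of 20251 CPM.

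**Figure D4:**
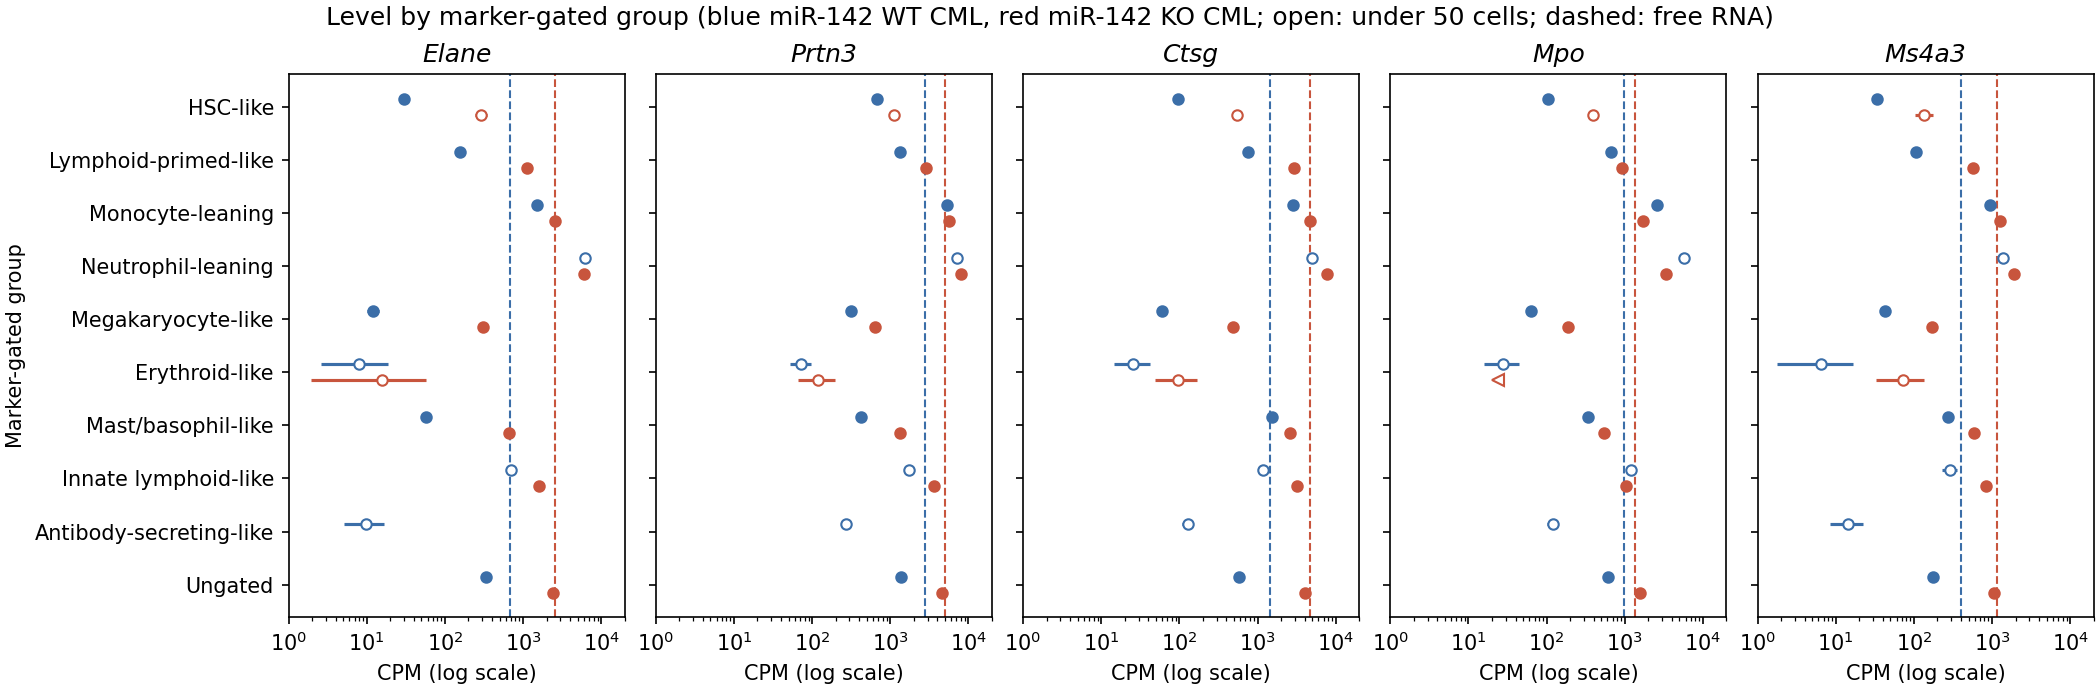
Level of each gene in each marker-gated group (CPM, logarithmic axis) in the miR-142 WT library (blue) and the miR-142 KO library (red), with exact 95% Poisson intervals, open symbols for groups under 50 cells, and dashed lines for the free RNA of each library. A red arrow marks the limit of 3 counts where Mpo had 0 UMIs. Red lies right of blue in most groups. For Mpo it lies left in the Monocyte-leaning, Neutrophil-leaning, Innate lymphoid-like and Erythroid-like groups. For Elane it lies left in the Neutrophil-leaning group, with 6095 against 6268 CPM.

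Ratios were taken in the 5 groups with at least 50 cells in both libraries. In Lymphoid-primed-like cells, 4 of the 5 genes were at least 2-fold higher in the miR-142 KO library, where 0.929% of 7539 genes were. There Elane stood at 155 and 1127 CPM, a log2 ratio of 2.86 (2.83 to 2.90), and Ms4a3 at 105 and 570 CPM, a log2 ratio of 2.44. Ctsg reached 1.97 and Prtn3 1.10, while Mpo stood at 658 and 922 CPM, a log2 ratio of 0.49 (0.47 to 0.51). For Mpo the median cell and the share of cells went the other way in this group, with 238 and 228 CPM and with 71.8% and 71.0% of thinned cells, so that its higher mean lay in the upper cells.

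Ungated cells either had fewer than 3 markers of every list or tied between lists, as 260 of the 1210 miR-142 WT and 337 of the 973 miR-142 KO cells did. They gave 5 of 5 genes at least 2-fold higher, against 1.71% of 7642 genes. Their log2 ratios were 2.88 for Elane, 2.83 for Ctsg, 2.59 for Ms4a3, 1.77 for Prtn3 and 1.36 for Mpo. Mast/basophil-like cells gave 3 of 5, against 2.14% of 7557 genes, with 3.52 for Elane, 1.65 for Prtn3, 1.08 for Ms4a3, 0.78 for Ctsg and 0.70 for Mpo. Megakaryocyte-like cells gave 5 of 5, against 0.957% of 7835 genes. Their Elane level was 12.1 CPM in miR-142 WT cells and 305 CPM in miR-142 KO cells, but the median cell had 0 CPM in both and the 90th percentile was 56.7 and 110 CPM, so a few cells carried the mean. For Mpo the median was also 0 CPM in both, and the 90th percentile was 144 and 136 CPM. All 5 genes lay far below free RNA in the Megakaryocyte-like cells. They stood between 0.0176 times its level (Elane, miR-142 WT) and 0.147 times (Ms4a3, miR-142 KO). The part of free RNA and of doublets in the ratios of this group was not tested.

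Monocyte-leaning cells gave the smallest ratios. None of the 5 genes was at least 2-fold higher there, against 0.655% of 7022 genes. Elane stood at 1493 and 2596 CPM, a log2 ratio of 0.80, Ctsg at 2809 and 4694 CPM (0.74), and Ms4a3 at 935 and 1271 CPM (0.44). Prtn3 hardly differed, with 5290 and 5635 CPM and a log2 ratio of 0.09 (0.08 to 0.10). Mpo was lower in the miR-142 KO cells, with 2607 and 1731 CPM and a log2 ratio of -0.59 (-0.60 to -0.58), and its median cell was lower too, at 2144 and 1391 CPM. The cells of this group kept the marker Irf8 in 93.2% and 85.7% and Ly86 in 62.5% and 34.5% of cells, and the part of this difference in the gene levels was not tested.

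Of the groups without a ratio, the 208 Innate lymphoid-like cells of the miR-142 KO library held Elane at 1598 CPM and Mpo at 1023 CPM, and only 15 miR-142 WT cells passed that gate. The 48 Antibody-secreting-like cells, all of the miR-142 WT library, held Elane at 9.72 CPM and Prtn3 at 272 CPM. Erythroid-like cells held the least, with Elane at 8.07 CPM in 21 miR-142 WT cells and 15.9 CPM in 6 miR-142 KO cells.

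Cathepsin G led the 5 genes in Mast/basophil-like cells, more clearly in the miR-142 WT library. In Mast/basophil-like cells it made up 58.2% of the UMIs of the 5 genes in the miR-142 WT library and 45.7% in the miR-142 KO library, against 23.2% and 31.8% in free RNA. Its level there was 1528 CPM in miR-142 WT cells, 1.05 times that in free RNA. In the same cells Elane was at 57.2 CPM, 0.0831 times that in free RNA, and Ms4a3 at 0.682 times. In the miR-142 KO library Ctsg stood at 0.562 times its level in free RNA, close to Ms4a3 at 0.506 times. Ctsg lies in a cluster with mast cell protease genes. Prtn3 made up its largest share in HSC-like cells of the miR-142 WT library, 71.6% of the UMIs of the 5 genes. There it was seen in 97.3% of thinned cells, with a median of 585 CPM. Its level there was 0.241 times that in free RNA, against 0.0257 times in Erythroid-like cells. The large share was not particular to HSC-like cells, with 63.5% in Megakaryocyte-like and 51.2% in Erythroid-like cells of the same library. In the 37 HSC-like cells of the miR-142 KO library Prtn3 made up 45.3%.

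The mix of the 5 genes also differed between the libraries. Over all cells, Prtn3 made up 40.8% of their UMIs in the miR-142 WT library and 32.8% in the miR-142 KO library, and Mpo made up 20.1% and 11.4%. Elane made up 10.6% and 18.0%, Ctsg 22.1% and 30.3%, and Ms4a3 6.34% and 7.51%. The share of Mpo was lower in the miR-142 KO library in Lymphoid-primed-like cells (21.8% and 10.9%), Monocyte-leaning cells (19.8% and 10.9%), Neutrophil-leaning cells (22.8% and 12.4%), ungated cells (19.8% and 11.2%), Innate lymphoid-like cells (23.8% and 9.98%), Mast/basophil-like cells (12.9% and 9.54%) and Megakaryocyte-like cells (13.04% and 10.6%). It was higher in HSC-like cells, with 11.2% and 15.7%, though only 37 miR-142 KO cells passed that gate.

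To compare the other genes at equal Prtn3, cells of both libraries were set side by side at the same number of Prtn3 UMIs, of 8000. Prtn3 itself differed between the libraries, and the gated groups were not matched within a bin. Equal Prtn3 therefore need not mean the same stage or cell type. At 40 to 79 Prtn3 UMIs (407 miR-142 WT and 1355 miR-142 KO cells), a cell held 28.8 UMIs of Mpo in the miR-142 WT library and 21.3 in the miR-142 KO library, a log2 ratio of -0.44 (-0.47 to -0.40). In the same cells Elane stood at 19.8 and 35.7 UMIs (0.85), Ctsg at 27.9 and 48.99 UMIs (0.81), and Ms4a3 at 9.94 and 12.9 UMIs (0.38). At equal Prtn3 the knockout cells thus held more elastase and cathepsin G message and less myeloperoxidase message.

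The signs were the same in all 7 bins of Prtn3, though some bins held too few UMIs of a gene to be read. The log2 ratio of Mpo was below 0 in every bin, with every interval below 0. At 5 Prtn3 UMIs or more it lay from -0.81 to -0.25. Those of Ctsg and Ms4a3 were above 0, from 0.78 to 2.31 and from 0.38 to 2.21. Elane was also above 0 in all 7 bins, from 0.38 to 1.66, but below 10 Prtn3 UMIs it lay under 1 UMI a cell in both libraries, with 0.239 to 0.383 in miR-142 KO cells. Mpo below 5 Prtn3 UMIs and Ms4a3 at 0 or 1 and at 5 to 9 also lay under 1 UMI in both, and no difference is read from any of these bins for those genes. At 10 to 19 Prtn3 UMIs Elane stood at 0.332 and 1.05 UMIs, and at 20 to 39 at 4.78 and 9.56 UMIs. The steep part of the Elane curve began at 10 to 39 Prtn3 UMIs in both libraries. Of the cells with 0 or 1 Prtn3 UMI, 136 in the miR-142 WT library and 173 in the miR-142 KO library were Mast/basophil-like. Without Mast/basophil-like cells the signs in all bins were the same, and at 0 or 1 Prtn3 UMI Ctsg stood at 0.342 and 1.79 UMIs in place of 2.50 and 5.68. Ms4a3 at 2 to 4 Prtn3 UMIs then also lay under 1 UMI in both libraries, with 0.193 and 0.580, and is not read.

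**Figure D5:**
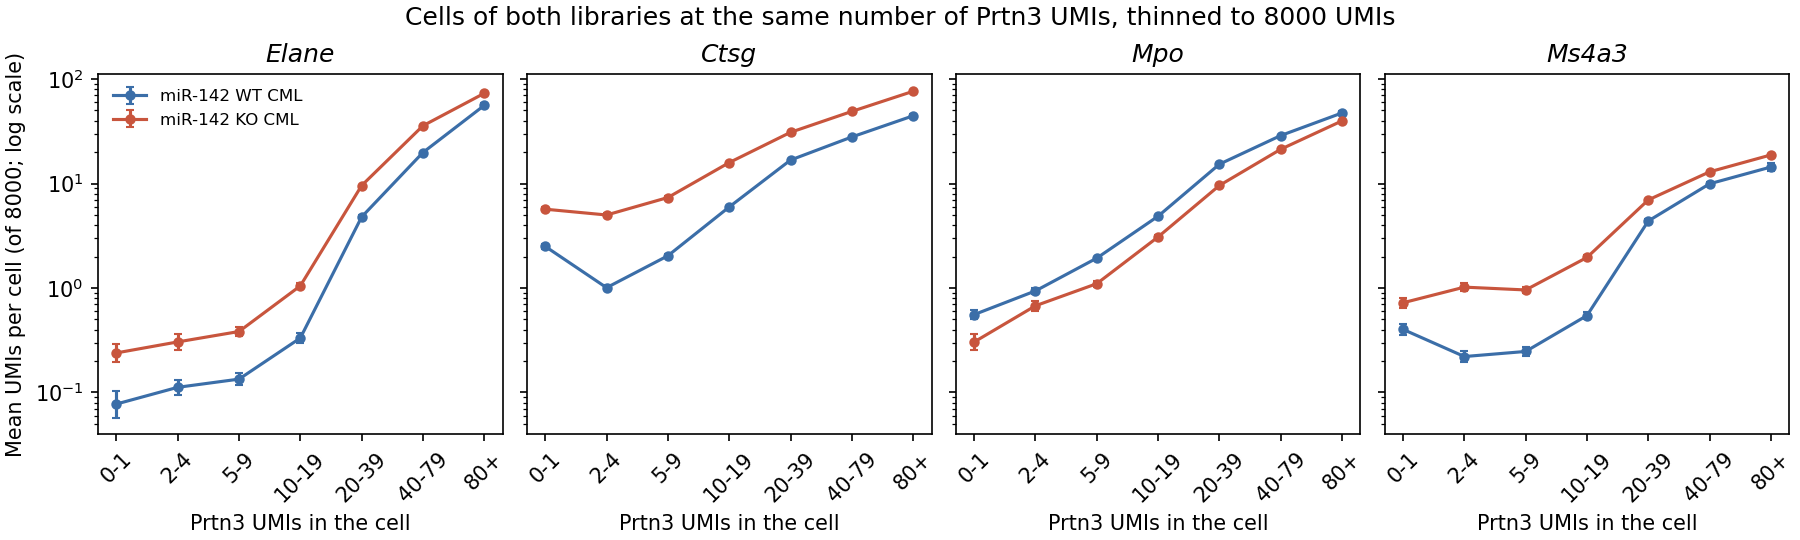
Mean UMIs of Elane, Ctsg, Mpo and Ms4a3 in a cell thinned to 8000 UMIs (logarithmic axis, exact 95% Poisson intervals) in bins of Prtn3 UMIs of the same cell. The miR-142 KO line lies above the miR-142 WT line for Elane, Ctsg and Ms4a3 and below it for Mpo in all 7 bins, for example 21.3 against 28.8 UMIs of Mpo at 40 to 79 Prtn3 UMIs.

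Prtn3 was seen in most cells, so that most cells with another gene also had it. Among thinned cells with Elane, 98.1% in the miR-142 WT library and 98.3% in the miR-142 KO library also had Prtn3, whereas among cells with Prtn3, 25.7% and 63.8% also had Elane. Elane and Ms4a3 overlapped in part in the miR-142 WT library, where 65.2% of cells with Elane had Ms4a3 and 51.8% of cells with Ms4a3 had Elane. All 5 genes were seen in 15.4% of miR-142 WT cells (14.4% to 16.4%) and 51.2% of miR-142 KO cells (49.9% to 52.6%). Exactly 1 gene was seen in 20.3% and 5.13% of cells, and that gene was Prtn3 in 88.6% and 68.2% of them. It was Ctsg in 5.50% and 18.9% of them. Across cells, each gene correlated with each other gene, with Pearson's r from 0.67 to 0.84 over 5363 miR-142 WT cells and from 0.73 to 0.88 over 5458 miR-142 KO cells (log scale). The cells share a library and differ in depth, and these values are a description only.

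The levels were also read by cell cycle class, called in cells thinned to 8000 UMIs: at least 4 of 10 G2/M genes, otherwise at least 4 of 10 S phase genes, or neither. Elane stood at 862, 483 and 86.7 CPM in these classes of the miR-142 WT library and at 3011, 2395 and 972 CPM in those of the miR-142 KO library. The classes differed in depth, with medians of 29298, 17892.5 and 11134 UMIs a cell and of 37865, 23356 and 11439, and their order turned at a similar depth. Among cells of at least 16000 but under 32000 UMIs, a range chosen after the data had been seen, Elane stood at 43.3, 156 and 245 CPM and at 785, 1261 and 2405 CPM, so no order of the classes is read. Between the libraries, all 5 genes stood higher in the miR-142 KO library in each of the 3 classes, and also within that depth range, where the closest by ratio were 554 and 1118 CPM, for Mpo in the S phase class. The cycle genes themselves went slightly the other way: 9 of 10 S phase genes and 10 of 10 G2/M genes stood lower in the miR-142 KO library, with median log2 ratios of -0.22 and -0.15 against -0.08 over all genes tested.

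Other genes of the granule pathway were read from fixed lists. Of 23 listed genes for primary granule cargo and enzymes, 19 reached 10 CPM, and 18 of these stood higher in the miR-142 KO library, with a median log2 ratio of 0.28, where 38.1% of all tested genes stood higher. Only Cd63, a membrane protein of the granule, was at least 2-fold higher, with 213 and 571 CPM (1.42). Prss57, which encodes neutrophil serine protease 4, stood at 81.4 and 162 CPM (0.99), and Srgn, the proteoglycan core that packs granule proteases, at 1470 and 2677 CPM (0.86). Arsb, a lysosomal sulfatase, had a log2 ratio of 0.82, and Plac8, at the highest level of the list, stood at 1967 and 3259 CPM (0.73). Serpinb1a, an inhibitor of these proteases, stood at 312 and 466 CPM (0.58). The exception was Ctsc, the enzyme that activates the granule serine proteases, at 88.8 and 77.9 CPM (-0.19). Among 10 genes of granule transport and congenital neutropenia that reached 10 CPM, 5 stood higher and 5 lower, with a median of 0.01. Lyst (0.62) and Ap3b1 (-0.34) lay farthest from 0, followed by G6pc3 (0.29) and Unc13d (-0.28), and none was 2-fold apart.

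The regulators were divided. Of 18 listed, 14 reached 10 CPM, 7 stood higher and 7 lower, with a median log2 ratio of 0.02. Cebpe, which drives the step from promyelocyte to myelocyte, stood at 5.51 and 42.5 CPM (2.94). It was under 10 CPM in the miR-142 WT library and passed the floor only through the miR-142 KO library. Gfi1, a repressor needed for neutrophils, stood at 22.3 and 50.9 CPM (1.19). Irf8, which favours monocytes over neutrophils, stood at 77.7 and 38.2 CPM (-1.02) and Zeb2, a repressor that also acts in monocytes and dendritic cells, at 97.5 and 61.8 CPM (-0.66). The factors with the highest levels differed little, with Myb at 225 and 264 CPM (0.23), Spi1, which encodes PU.1, at 193 and 231 CPM (0.26), Cebpb at 149 and 199 CPM (0.42) and Runx1 at 92.7 and 81.2 CPM (-0.19). These ratios are over all cells, and not all kept their direction within the myeloid groups. In Monocyte-leaning and Neutrophil-leaning cells together, Cebpb stood at 272 and 240 CPM and Spi1 at 266 and 259 CPM. Myb stood at 199 and 263 CPM there and Runx1 at 68.6 and 62.4 CPM. Cebpe and Gfi1 were markers of the Neutrophil-leaning gate and Irf8 of the Monocyte-leaning gate.

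Genes of later granules were sparse. Of 16 listed genes of secondary and tertiary granules and the neutrophil cytosol, 5 reached 10 CPM and all 5 were at least 2-fold higher, against 1.02% of all tested genes. The floor favours this count, since S100a9 and Wfdc21 were under 10 CPM in the miR-142 WT library and passed only through the miR-142 KO library. A gene under the floor went the other way: Mmp8, a collagenase, stood at 2.87 and 0.252 CPM (-3.51, from -4.02 to -3.04). Lcn2, a siderophore-binding protein, stood at 53.2 and 366 CPM (2.78), S100a8 at 14.1 and 107 CPM (2.92), S100a9 at 6.19 and 35.7 CPM (2.53), Wfdc21 at 6.03 and 58.9 CPM (3.29) and Ltb4r1 at 18.7 and 38.5 CPM (1.04). Ltf and Camp, the classic contents of secondary granules, were at or below 0.170 CPM in both libraries. Among 12 early granulocyte-monocyte genes, Ms4a3 included, 8 stood higher and 4 lower, with a median of 0.15. Fcgr3 stood at 25.1 and 75.4 CPM (1.59), and Ms4a6c, another member of the family of Ms4a3, at 143 and 76.2 CPM (-0.91). The secretory genes Sec61b (843 and 1138 CPM, 0.43) and Calr (792 and 985 CPM, 0.32) stood slightly higher over all cells, and Hsp90b1 (523 and 527 CPM) was nearly level. In Monocyte-leaning and Neutrophil-leaning cells together, Sec61b was again higher (1107 and 1308 CPM). There Calr (1265 and 1167 CPM) and Hsp90b1 (833 and 616 CPM) were lower in the miR-142 KO library.

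Gene positions are given on GRCm38 from GENCODE M21. Elane (chr10:79886247-79888215, plus strand) and Prtn3 (chr10:79874476-79883174, plus) are neighbours, 3073 bp apart, and Prtn3 overlaps the 5′ part of Plppr3 on the other strand. Despite this closeness their log2 ratios were 1.98 and 0.90. Prss57, a further protease gene of this cluster, had 0.99, while the other 13 genes that reached 10 CPM within 150 kb of Elane lay between -0.47 (Cnn2) and 0.63 (Palm). Ctsg (chr14:56099881-56102574, minus) has Mcpt4 (32.4 and 69.5 CPM, 1.10) and Mcpt8 (161 and 111 CPM, -0.53), proteases of mast cells and basophils, as its only neighbours that reached 10 CPM. Ms4a3 (chr19:11629496-11640851, minus) had neighbours of both signs, from -1.09 for Ms4a6b to 1.31 for Oosp1. Oosp1, at 7.87 and 19.6 CPM, passed the floor of 10 CPM only through the miR-142 KO library.

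Mpo (chr11:87793581-87804413, plus), which overlaps the annotated gene Gm11505, lies on the chromosome that carries the deleted microRNA, 36654 bp beyond the precursor of miR-142. Between them lies Tspoap1, whose end is 7653 bp from the start of Mpo. Tspoap1 stood at 4.002 CPM in the miR-142 WT library and 338 CPM in the miR-142 KO library, a log2 ratio of 6.40 (6.28 to 6.52). Supt4a, on the far side of the microRNA, had -0.30. The part of the altered locus in the Mpo level was not tested, and it cannot be told apart from the absence of the microRNA with these 2 libraries.

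The genes whose level across cells was most like the sum of the 5, by the lower r of the libraries, were Hp (haptoglobin; r = 0.75 in miR-142 WT and 0.84 in miR-142 KO cells), Ap3s1 (0.74 and 0.81), a subunit of the adaptor that sorts proteins to granules, and Anxa3 (0.71 and 0.76). They were followed by Trem3, which was a marker of the Neutrophil-leaning gate, Plac8, Igsf6, Clec12a, Pgam1, Lcn2 and Calr, with r between 0.62 and 0.82. Hp stood at 140 and 413 CPM (log2 ratio 1.56) and Ap3s1 at 250 and 457 CPM (0.87) in the miR-142 WT and miR-142 KO libraries. The most opposed were Ctla2a (-0.68 and -0.83), Car2, Nrgn, Meis1 and Gimap1. Meis1, a gene of stem cells, stood at 93.2 and 44.98 CPM (-1.05). These values are over 5363 and 5458 cells that share a library and are a description only.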

How the data were processed

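LSK cells of both groups were captured on the 10x 3′ v3.1 platform with 1 library each. The authors deposited raw UMI counts per gene and barcode, made with Cell Ranger (version 6.1.2 in the submitters' processing notes, 4 in the file headers) on mm10, with all barcodes kept; these counts were not normalized. The study kept barcodes of more than 300 UMIs. At 300 to 999 UMIs the sum of the 5 genes was still near that in free RNA, with 5794 and 15816 CPM. The limit of 8000 used here also leaves out barcodes of 1000 to 7999 UMIs, where the sum lay far below free RNA. Barcodes over the cutoff numbered 5387 and 5462, of which 24 and 4 were removed by the mitochondrial limit of 10%. Counts were summed over cells and scaled to CPM in Python 3.11.15 (numpy 2.4.6, scipy 1.17.1), with exact Poisson, Clopper-Pearson and conditional binomial intervals. Genes with a mean of at least 10 CPM were compared. Identifiers matched GENCODE M21 for 32235 of 32285 genes, and all 5 genes had 1 RefSeq promoter. Doublets were kept; Scrublet (scanpy 1.11.5) called 4 in each library by its automatic threshold, so its highest scores at the expected rate were removed as an alternative. A cell was gated to the list with the largest share of markers seen, and ties were left ungated. Text named the 5 genes, the 4 largest ratios and 4 highest levels of each list, neighbours within 150 kb and the 10 genes most like the sum. The members, lists and gates were chosen with earlier results of these data known. The ratio, thinning and gating steps were checked on simulated data.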

Additional observations from a re-analysis of the deposited data

Results flagged for a closer look

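Mpo is singled out because its log2 ratio between the libraries lay on opposite sides of 0 in different gated groups. It was -0.59 in Monocyte-leaning cells (849 miR-142 WT and 1132 miR-142 KO cells) and 1.57 in Megakaryocyte-like cells (498 and 306 cells), where the levels were only 63.9 and 190 CPM. Those 2 levels were 0.0648 and 0.141 times the level in free RNA. In the Megakaryocyte-like cells the median was 0 CPM in both libraries and the 90th percentile was 144 and 136 CPM. A few cells thus carried the ratio of 1.57. The difference between the groups was not tested, since each library is 1 sample.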

How the results depend on the processing

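With 1 library a group there is nothing to leave out, and no paired analysis was possible because each group is 1 library. Genes below about 10 CPM and single UMIs near the free RNA level are limits of this depth. Moves below are against the exact 95% interval, which is narrow at these counts; causes were not tested.

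Log2 ratios are given for Elane, Prtn3, Ctsg, Mpo and Ms4a3 in this order. They were 0.84, 0.44, 1.10, -0.30 and 0.87 with equal shares of the gated groups (the 9 groups present in both libraries), where Mpo reversed and Elane and Ms4a3 fell under 2-fold. Over the 5 groups of 50 or more cells, an alternative chosen after seeing the data, they were 1.37, 0.48, 1.22, -0.13 and 0.96, with Mpo again reversed. The mean of per-cell CPM gave 2.56, 1.17, 2.12, 0.81 and 2.02. At 16000 UMIs or more they were 1.89, 0.84, 1.56, 0.31 and 1.36. Median-of-ratios size factors, which shift every ratio by 0.08, gave 2.06, 0.98, 1.74, 0.47 and 1.53. Without the top Scrublet scores (230 and 238 cells) they were 1.96, 0.88, 1.65, 0.38 and 1.44. Subtracting free RNA at 1.17% and 0% of UMIs gave 1.999, 0.92, 1.68, 0.41 and 1.47; the share was 0% because Mpo had 0 UMIs in 6 Erythroid-like cells. Setting that share in groups of 50 or more cells, an alternative chosen after seeing the data (1.76% and 10.5%), gave 1.85, 0.76, 1.52, 0.28 and 1.31. More than 300 UMIs (8525 and 7099 cells) gave 0.89 for Prtn3 and 1.66 for Ctsg, and a mitochondrial limit of 5% gave 1.97 for Elane, 0.89 for Prtn3 and 1.44 for Ms4a3, with the others within their intervals. Of the 50 values, 48 kept their direction.

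With no filter but 10 UMIs in all, 643 genes were at least 2-fold higher and 1964 lower, against 76 and 88; size factors gave 88 and 74. With 2 or 4 markers a gate, 50 of 50 ratios in gated groups kept their direction and 31 lay within the interval. Free RNA levels at 11 to 49 UMIs, or at 50 or more but under 300 lay within it in 7 of 20 cases.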
